A study of Mus musculus with 8 samples.

Results

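The circadian clock was described by 10 of its genes, of 18193 genes named on the array, across the 8 arrays of the study. Every probe set that the platform annotation lists was used for Arntl, Clock, Npas2, Per1, Per2, Per3, Nr1d1, Nr1d2, Dbp and Tef. They were chosen by name. Total RNA of the epididymal fat pad, a white fat depot of the male abdomen, was hybridised to Affymetrix 3′ expression arrays, 1 array per biological replicate. The 4 LPA4-KO mice were deficient in Lpar4 (Lpar4 -/Y), the X-linked gene of the lysophosphatidic acid receptor LPA4, and the 4 WT mice were wild type. All 8 were male C57BL/6 littermates of 12 weeks on standard chow, kept in a cycle of 12 hours of light and 12 hours of dark. The sources used here do not give the hour at which each fat pad was taken, the last meal or the part of Lpar4 that was deleted. The clock genes were therefore compared between the genotypes and between single arrays, as a check of collection time.

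The clock of a mammalian cell is a loop of transcription. CLOCK, or its relative NPAS2, pairs with BMAL1, the product of Arntl, and the pair switches on genes that carry an E-box, among them the Per genes, Nr1d1, Nr1d2, Dbp and Tef. The PER proteins then hold the pair back, the REV-ERB receptors made from Nr1d1 and Nr1d2 repress Arntl, Npas2 and Clock, and DBP and TEF, related factors with a basic leucine zipper, act on genes with a D-box. In peripheral organs of mice, fat included, Arntl and Npas2 RNA is high when Dbp RNA is low, and the reverse, so that levels of both kinds in one sample tell roughly where in the daily cycle it was taken. Light sets this clock through the brain, and meals, glucocorticoids and body temperature set it in fat.

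Stretches of RefSeq promoters (build GRCm38.p6) are shown for 4 members because each holds a motif of one of these arms, in capitals. The motifs were searched on both strands in windows from 250 bases before to 50 bases after each annotated start: the E-box as CACGTG, the D-box as TTANGTAA and the core of the REV-ERB and ROR element (RORE) as TAGGTCA. Per1 at chr11:69098739-69098858 (+ strand) and Tef at chr15:81802483-81802602 (+ strand) have the E-box, Per3 at chr4:151044776-151044895 (- strand) has the D-box at 2 places, and Arntl at chr7:113207530-113207558 (+ strand) has the RORE core.
Per1: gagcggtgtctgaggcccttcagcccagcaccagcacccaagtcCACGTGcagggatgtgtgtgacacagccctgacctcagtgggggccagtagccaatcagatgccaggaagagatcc
Tef: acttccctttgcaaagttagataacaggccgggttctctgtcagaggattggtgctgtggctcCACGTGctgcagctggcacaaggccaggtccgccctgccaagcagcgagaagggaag
Per3: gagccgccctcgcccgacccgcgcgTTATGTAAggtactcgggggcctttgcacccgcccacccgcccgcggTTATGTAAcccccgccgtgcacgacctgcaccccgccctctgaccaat
Arntl: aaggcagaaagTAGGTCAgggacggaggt
Counted from the start, the first base of the motif lies at -166 in Per1, -127 in Tef, -205 and -158 in Per3, and 31 in Arntl. Of 32851 promoter windows of all genes, 7.15% hold the E-box, 2.32% the D-box and 2.61% the RORE core, and the 3 do not overlap in these members. The table listed 14 windows for 9 of the 10 members. A second Tef window also holds the E-box, and the searched letters were not found in the windows of Clock, Npas2, Nr1d1, Nr1d2 and Dbp.

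The members had 26 probe sets among the 34945 with a single gene name. Of these, 20 varied, meaning that they spanned over 0.1 on the log2 scale between the lowest and the highest of the 8 arrays, and all 10 genes had at least 1 of them. The other 6 (1 each for Arntl, Npas2, Per2, Per3, Nr1d2 and Tef) spanned at most 0.0013, while the narrowest varying one spanned 0.66. Such flat rows made up 28263 of the 34945 named probe sets in the deposited table, so a flat row is not a measured lack of change. The varying member probe sets had a median range of 1.25 log2, against 0.53 for all 6682 varying probe sets. Levels are log2 signals of a probe set and are not compared between genes. They are given for the varying probe set with the highest mean of a gene, with SD over 4 arrays for group means and SE for log2 differences (LPA4-KO minus WT).

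No clock gene passed the test between genotypes. Of the 26 member probe sets 0 were called by limma at an adjusted p under 0.05 over all named probe sets, where 0.933% of all named probe sets were called (326 of 34945, with 0.321% lower and 0.612% higher in LPA4-KO), and 1 of the 26, that of Nr1d1, had an unadjusted p under 0.05, beside 16.9% of all named probe sets and 38.9% of the varying ones. Of the 20 varying ones 9 had a positive and 11 a negative difference, with a median of -0.14 log2 against -0.05 over all varying probe sets. The larger of the ranges within LPA4-KO and within WT was a median of 4.27 times the genotype difference, against 2.06 times over all varying probe sets. It exceeded the difference in all 20, also in Nr1d1 (1.09 times), whose groups do not overlap. A range of single arrays and a difference of means are unlike measures, so that count does not weigh mice against genotypes. Genotype accounted for a median of 12.5% of the variance among arrays in the member probe sets and for 36.4% over all varying probe sets. For Nr1d1 it was 70.7%.

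**Figure D1:**
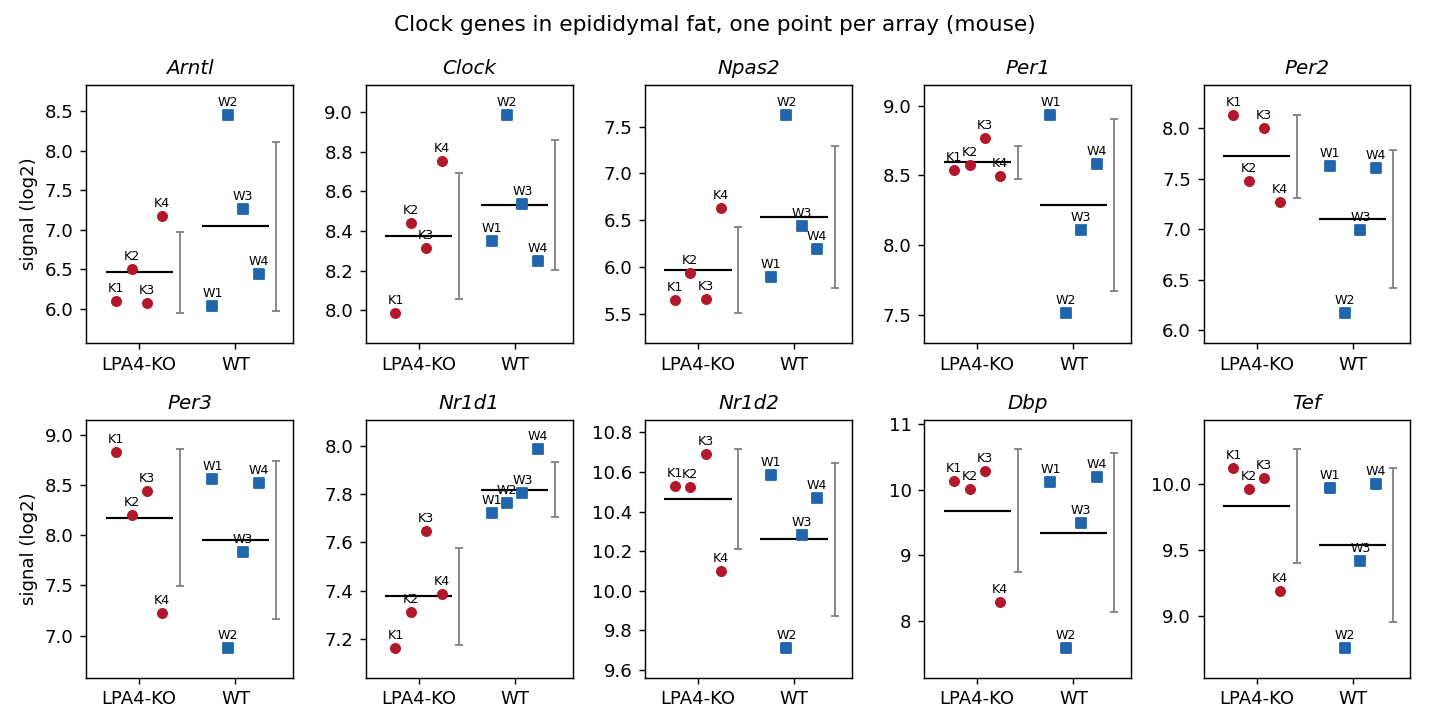
Log2 signal of the 10 clock genes (probe set with the highest mean) in each array; red circles K1 to K4 are LPA4-KO replicates, blue squares W1 to W4 are WT replicates, black lines are group means and grey bars ± 1 SD (n = 4), and each panel has its own vertical axis. W2 stands at the top for Arntl, Npas2 and Clock, W2 and K4 stand at the bottom for Dbp and Tef, and only in Nr1d1 do the genotypes not overlap.

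Among the activators, Arntl encodes BMAL1, the partner that no other gene in this loop replaces. Its signal in LPA4-KO replicates 1 to 4 was 6.10, 6.51, 6.07 and 7.17, and in WT replicates 1 to 4 it was 6.04, 8.46, 7.26 and 6.44. The highest array, WT replicate 2, and the lowest, WT replicate 1, were both wild type, 5.35-fold apart, and the LPA4-KO arrays lay between them. The mean was 6.46 ± 0.51 for LPA4-KO and 7.05 ± 1.07 for WT (SD, n = 4), a difference of -0.58 ± 0.57 (95% interval -1.96 to 0.79, adjusted p = 0.67 by limma). Without WT replicate 2 the difference was -0.12 ± 0.41.

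Npas2, which can stand in for CLOCK, was highest in the same array as Arntl. Its signal was 5.65, 5.94, 5.66 and 6.63 in LPA4-KO replicates 1 to 4 and 5.90, 7.63, 6.44 and 6.19 in WT replicates 1 to 4. WT replicate 2 was again the highest and LPA4-KO replicate 4 the next, while the other LPA4-KO arrays and WT replicate 1 were low. The difference was -0.57 ± 0.43 (95% interval -1.60 to 0.46, adjusted p = 0.57 by limma), and -0.21 ± 0.29 without WT replicate 2. Clock, whose RNA swings less than that of Arntl in most tissues, read 7.98, 8.44, 8.31 and 8.75 in LPA4-KO and 8.35, 8.99, 8.53 and 8.25 in WT mice. Its highest arrays were WT replicate 2 and LPA4-KO replicate 4 as well, and the groups overlapped at all 4 of its probe sets. The 4 Clock differences were all negative, from -0.45 ± 0.21 at 1418660_at to -0.16 ± 0.22 at 1418659_at, with adjusted p from 0.31 to 0.79 by limma.

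The Per genes encode the repressors of the loop. Per2 read 8.13, 7.48, 8.01 and 7.27 in LPA4-KO replicates 1 to 4 and 7.63, 6.17, 6.996 and 7.61 in WT replicates 1 to 4. The array with the most Arntl, WT replicate 2, had the least Per2, 3.89-fold below LPA4-KO replicate 1, and the groups overlapped. The difference was 0.62 ± 0.39 (95% interval -0.31 to 1.55, adjusted p = 0.48 by limma) at 1417602_at and 0.48 ± 0.23 (adjusted p = 0.35) at 1457350_at, the other varying probe set. Without WT replicate 2 the first of these was 0.31 ± 0.29.

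Per3, the member of the family least needed for the rhythm, read 8.83, 8.20, 8.44 and 7.23 in LPA4-KO and 8.56, 6.88, 7.83 and 8.52 in WT mice. LPA4-KO replicate 4 and WT replicate 2 were the lowest of their groups. Its 5 varying probe sets did not share a sign between genotypes, with differences from -0.32 ± 0.28 to 0.22 ± 0.50 and adjusted p from 0.62 to 0.89 by limma. Per1, which responds to light and glucocorticoids besides the clock, read 8.54, 8.57, 8.77 and 8.49 in LPA4-KO and 8.93, 7.52, 8.11 and 8.58 in WT mice. Here WT replicate 2 was low but LPA4-KO replicate 4 lay within 0.27 log2 of the other LPA4-KO arrays. The difference was 0.31 ± 0.30 (adjusted p = 0.67 by limma).

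Dbp and Tef are the output arm. Dbp, one of the RNAs with the widest daily swing in mouse organs, read 10.13, 10.01, 10.28 and 8.29 in LPA4-KO replicates 1 to 4 and 10.11, 7.58, 9.49 and 10.20 in WT replicates 1 to 4. LPA4-KO replicates 1 to 3 and WT replicates 1 and 4 lay between 10.01 and 10.28, WT replicate 3 stood a little lower, and LPA4-KO replicate 4 and WT replicate 2 far lower, so that 1 mouse of each genotype was at the bottom. The span of 2.70 log2, 6.49-fold, was reached or exceeded by 8 of the 6682 varying probe sets, itself included. The means were 9.68 ± 0.93 and 9.34 ± 1.22, a difference of 0.33 ± 0.74 (95% interval -1.44 to 2.11, adjusted p = 0.88 by limma). Its sign rested on WT replicate 2, since without that array the difference was -0.25 ± 0.56.

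The second Dbp probe set, 1418174_at, ordered the same arrays at the bottom, with 7.05 in LPA4-KO replicate 4 and 6.45 in WT replicate 2 against 8.06 to 8.91 in the others. Tef read 10.13, 9.96, 10.05 and 9.19 in LPA4-KO and 9.97, 8.76, 9.41 and 10.003 in WT mice. WT replicate 2, LPA4-KO replicate 4 and WT replicate 3 were lowest, in the same order as for Dbp. The difference was 0.30 ± 0.35 (adjusted p = 0.74 by limma) at this probe set and -0.21 ± 0.32 (adjusted p = 0.81) at 1438033_at, where WT replicate 1 read highest.

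**Figure D2:**
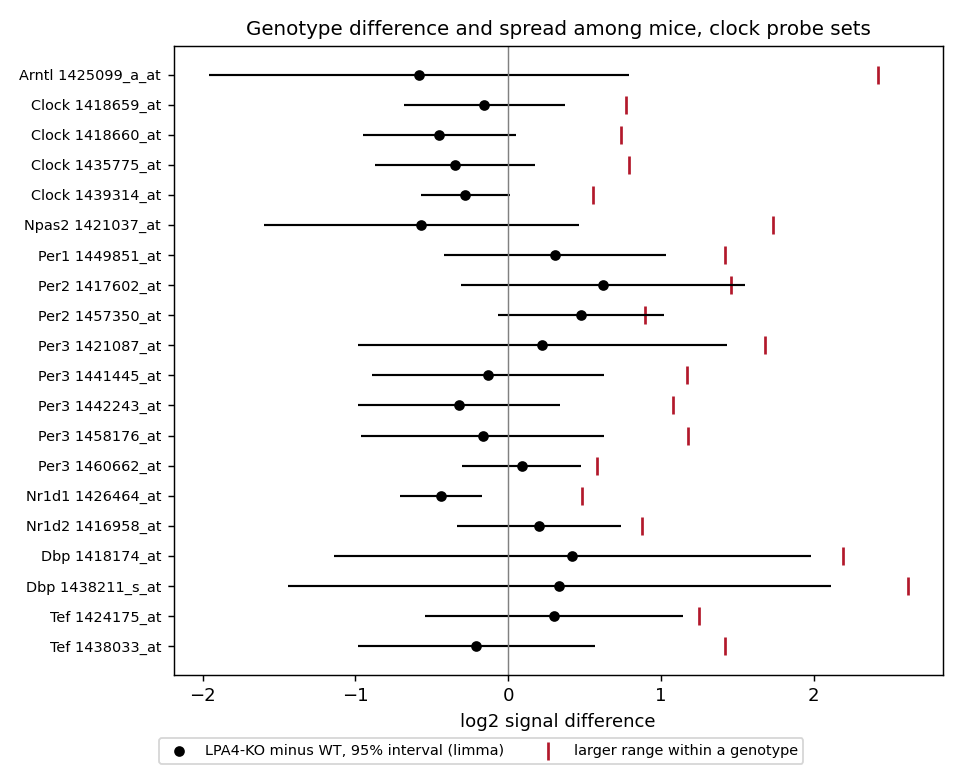
Difference in mean log2 signal, LPA4-KO minus WT (black points, with the 95% interval of the limma fit as lines), and the larger of the ranges within a genotype (red ticks) for the 20 varying clock probe sets; the horizontal axis is in log2 units. Every red tick lies farther from 0 than the black point of its row, and the interval of Nr1d1 alone does not include 0.

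Nr1d2, one of the REV-ERB genes, read 10.53, 10.53, 10.69 and 10.10 in LPA4-KO and 10.58, 9.71, 10.28 and 10.47 in WT mice. Its lowest arrays were WT replicate 2 and LPA4-KO replicate 4, and its genotype difference was 0.20 ± 0.22 (adjusted p = 0.72 by limma). Nr1d1, which encodes REV-ERBα, read 7.16, 7.31, 7.65 and 7.39 in LPA4-KO and 7.72, 7.76, 7.81 and 7.98 in WT mice at its only probe set, 1426464_at. All 4 LPA4-KO arrays were below all 4 WT arrays, and neither LPA4-KO replicate 4 nor WT replicate 2 was at an end of its group.

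The Nr1d1 means were 7.38 ± 0.20 and 7.82 ± 0.12, a difference of -0.44 ± 0.11 (95% interval -0.71 to -0.17). The exact two-sided permutation p was 0.0286, the smallest that 4 against 4 arrays can give, and the adjusted p over all named probe sets was 0.13 by limma. In a fit of the varying probe sets alone it was 0.028, where 18.8% of probe sets were called. Nr1d1 was the only 1 of the 20 varying member probe sets (5%) whose groups did not overlap, beside 28.2% of all varying probe sets. With each array left out in turn, the difference stayed between -0.53 and -0.37 and its adjusted p between 0.11 and 0.25 by limma.

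Markers of other cell types were read in the same arrays. Over 4 varying probe sets of fibroblasts and progenitors (Pdgfra, Dpt, Dcn), of which 1 of Dpt and 1 of Dcn were called lower, the mean log2 level ran from 9.83 to 10.14 in LPA4-KO and from 10.42 to 10.56 in WT arrays, and over 2 of smooth muscle (Acta2, Myh11) from 8.68 to 8.89 and from 9.08 to 9.67, where Acta2 was lower and Myh11 higher in mean without a call. Mesothelial markers (Upk3b, Msln, Wt1) ran from 7.84 to 8.43 and from 8.34 to 9.23, and macrophage markers (Cd68, Csf1r) from 9.32 to 9.43 and from 9.38 to 9.76. Adipocyte markers (Lep, Fabp4, Cidec, Pparg) overlapped, from 11.28 to 11.45 and from 11.24 to 11.64, and Adipoq was flat at 13.83 in both groups. The erythroid gene Alas2 ran the other way, from 8.03 to 8.48 in LPA4-KO and from 7.61 to 8.02 in WT arrays, with no overlap (0.48 ± 0.13, adjusted p = 0.14 by limma, not called), while Hba-a1 was flat. The varying probe sets of endothelium (Pecam1, from 7.49 to 8.23 and from 8.15 to 8.47), skeletal muscle (Acta1, from 8.87 to 10.82 and from 10.18 to 11.03) and brown fat (Cidea, from 6.36 to 7.26 and from 6.38 to 6.54) overlapped. The epididymis markers Lcn5, Adam7 and Defb42 and the lymphocyte markers Cd3e and Cd79a had flat rows with means from 5.84 to 6.95. In such whole-tissue RNA, fewer cells of a type and less RNA per cell cannot be told apart, and the part of cell makeup in the Nr1d1 difference was not tested. RefSeq places Nr1d1 and its neighbour Thra in overlapping positions, and the sources used here do not say where the Nr1d1 probes lie.

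Across arrays Arntl, Npas2 and Clock were high where Dbp, Tef, Per2, Per3 and Nr1d2 were low. Ordered by Dbp, the arrays ran from WT replicate 2 (7.58) through LPA4-KO replicate 4 (8.29) and WT replicate 3 (9.49) to the other 5 arrays. The 3 activators, as the mean of their deviations from the gene means, were highest in WT replicate 2 (1.203), LPA4-KO replicate 4 (0.37) and WT replicate 3 (0.26) and between -0.58 and -0.19 in the other 5. The other 7 genes were at -0.96, -0.44 and -0.16 in those same 3 arrays and between 0.14 and 0.40 in the other 5. Dbp is itself 1 of these 7, so part of their agreement with the order by Dbp was fixed in advance. Both genotypes had arrays at each end of this order.

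Arntl was set against 4 of the other genes, by exact two-sided permutation. The p of r were adjusted over 7 relations (3 over 8 arrays, 4 within groups) and those of rho over 3 (Benjamini-Hochberg). Arntl and Per2 had r = -0.96 over 8 arrays (adjusted p = 0.0035) and rho = -0.90 (adjusted p = 0.014), Arntl and Dbp r = -0.92 (adjusted p = 0.0049) and rho = -0.81 (adjusted p = 0.022), and Arntl and Per3 r = -0.93 (adjusted p = 0.0048) and rho = -0.86 (adjusted p = 0.016). With WT replicates 2 and 3 left out, the arrays farthest from the median of Arntl, r was -0.80 for Per2 (exact permutation p = 0.057), -0.90 for Dbp (p = 0.039) and -0.93 for Per3 (p = 0.026) over 6 arrays. After group means were removed r was -0.97 for Per2 (adjusted p = 0.0049), -0.94 for Dbp (adjusted p = 0.0061) and -0.95 for Per3 (adjusted p = 0.0049) in exact permutations within groups. For Nr1d1, whose groups do not overlap, this within-group r with Arntl was -0.13 (adjusted p = 0.74), and no pooled r was computed.

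**Figure D3:**
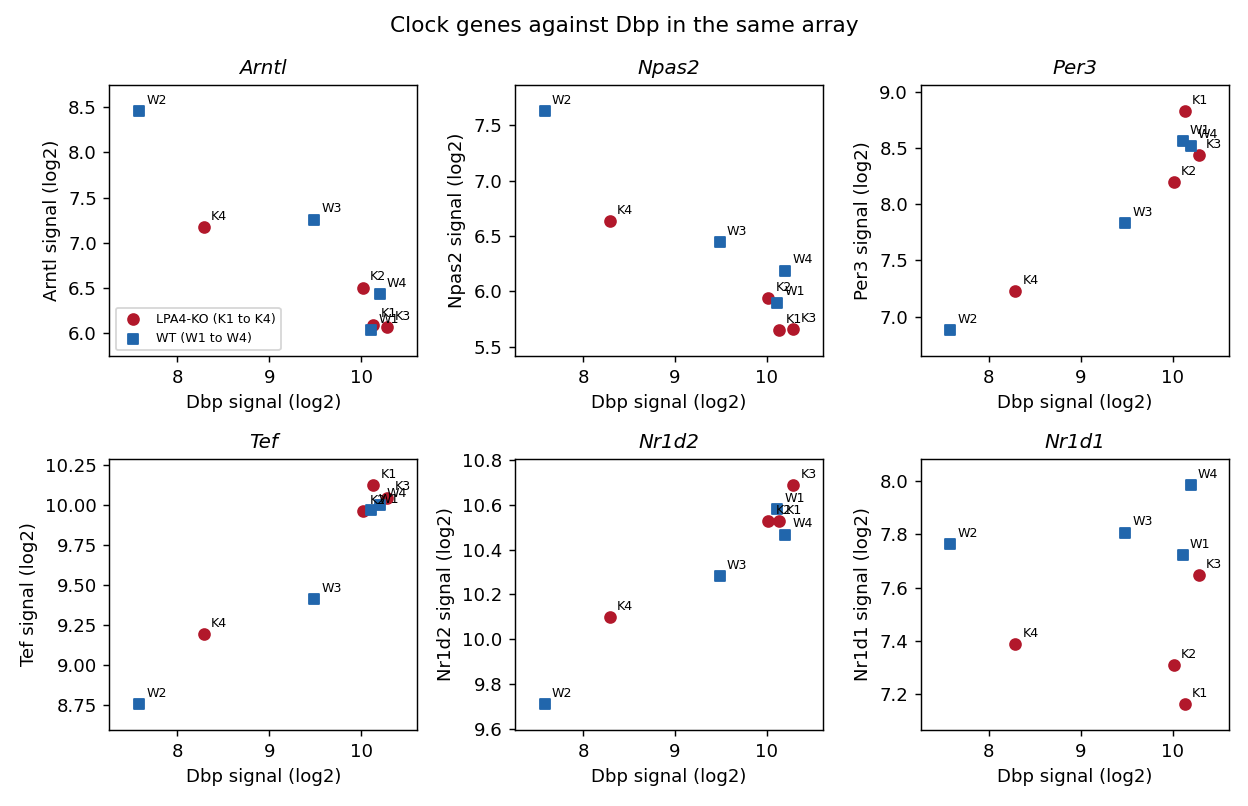
Log2 signal of 6 clock genes (vertical axes) against that of Dbp (horizontal axes) in the same array, with LPA4-KO replicates K1 to K4 as red circles and WT replicates W1 to W4 as blue squares. Arntl and Npas2 fall and Per3, Tef and Nr1d2 rise with Dbp from 7.58 in W2 to 10.28 in K3, while Nr1d1 is ordered by genotype.

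A fit with genotype and the Dbp level of each array, chosen after the levels were seen, gave every other gene a slope, its change in log2 signal per log2 unit of Dbp between mice of equal genotype. Of 18 varying member probe sets other than those of Dbp, 12 had a positive and 6 a negative slope, and the 6 were those of Arntl, Npas2 and Clock. The unadjusted p was under 0.05 in 17 of the 18 (all but Nr1d1), beside 14.1% (943 of 6680) of varying probe sets. Over all 34943 probe sets limma called 0 slopes. In the 6680 varying ones alone it called 34 (0.509%), 16 rising and 18 falling, and 9 of them were among the 18 member probe sets (50.0%), 6 rising and 3 falling.

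Among member probe sets, the steepest falls with Dbp were in the activators, -0.73 ± 0.10 for Arntl (adjusted p = 0.021 among varying probe sets by limma) and -0.57 ± 0.06 for Npas2 (adjusted p = 0.010). Clock fell less steeply, by 0.29 ± 0.03 at 1435775_at (adjusted p = 0.011), and its 3 other probe sets had negative slopes that did not pass. Among genes that rose with Dbp, Per3 had 0.65 ± 0.07 at 1421087_at, Tef 0.47 ± 0.04 and Nr1d2 0.30 ± 0.03 (each adjusted p = 0.010), and Per2 0.30 ± 0.04 at 1457350_at (adjusted p = 0.014). For slopes that did not pass, the SE is that of the fit of all named probe sets. Per2 did not pass at its probe set with the highest mean, 1417602_at (0.48 ± 0.09, adjusted p = 0.052 among varying probe sets by limma), nor Tef at 1438033_at (0.34 ± 0.12, adjusted p = 0.21). Per3 passed at 1458176_at and 1442243_at (each adjusted p = 0.021) but not at 1441445_at (adjusted p = 0.092) and 1460662_at (adjusted p = 0.093). Per1 had 0.33 ± 0.11 (adjusted p = 0.18 among varying probe sets) and Nr1d1 had 0.027 ± 0.064 (adjusted p = 0.91).

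The calls rested on the 2 arrays with little Dbp. Without WT replicate 2, and likewise without LPA4-KO replicate 4, 0 of the 18 member slopes were called among varying probe sets, while all 18 kept their sign and 14 and 17 of them had an unadjusted p under 0.05. Without WT replicate 4, 4 were called. Over the varying probe sets, WT replicate 2 correlated with its own group with a mean r of 0.975, where WT arrays ran from 0.972 to 0.980. LPA4-KO replicate 4 had 0.983, the lowest of its group, where the others ran from 0.985 to 0.988. These r are of log2 levels and mainly reflect level differences between probe sets, so they cannot tell whether an array stands apart.

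With Dbp in the fit, the genotype difference passed for 1 member probe set, Per2 at 1457350_at (0.38 ± 0.04, adjusted p = 0.041 by limma, where 0.704% of named probe sets were called). Its other varying probe set had 0.46 ± 0.17 and did not pass (adjusted p = 0.27). Nr1d1 kept its size, with -0.45 ± 0.12 (adjusted p = 0.17), and Clock at 1435775_at had -0.25 ± 0.03 (adjusted p = 0.051).

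**Figure D4:**
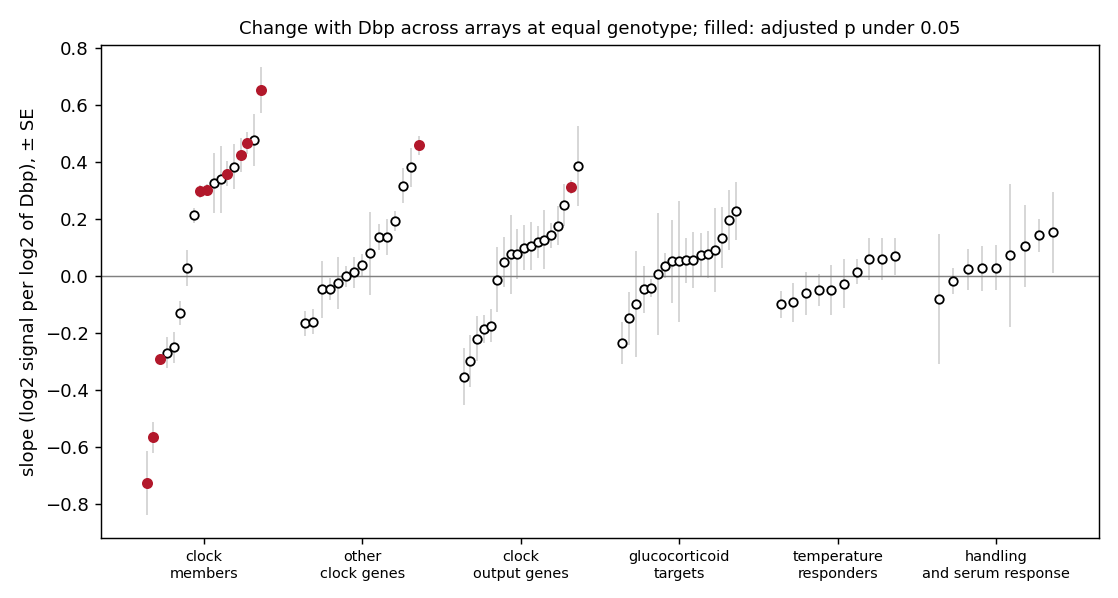
Slope of each varying probe set on Dbp (log2 signal per log2 of Dbp at equal genotype, vertical axis) in 6 gene lists, with bars of ± SE from the fit of all named probe sets. Filled red points had an adjusted p under 0.05 in the fit of varying probe sets. For these, the text gives the SE of that second fit, which differs from the bars. Clock members spread from -0.73 to 0.65, with 9 filled points. The lists of glucocorticoid targets, of temperature responders and of handling and serum response have none, where 0.509% of all varying probe sets were called.

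Other genes of the clock were set against Dbp in the same way. Of 17 further clock genes 15 were measured, with 15 varying probe sets of 8 genes. Of these 15 slopes 7 had an unadjusted p under 0.05 by limma, beside 14.1% over all varying probe sets. Hlf, the third relative of Dbp and Tef, rose with Dbp at 1434735_at (0.46 ± 0.04, adjusted p = 0.010 among varying probe sets by limma). It read 7.53, 7.35, 7.59 and 6.76 in LPA4-KO and 7.42, 6.09, 6.93 and 7.31 in WT mice, lowest in WT replicate 2 and LPA4-KO replicate 4. Bhlhe40, a repressor that competes for the E-box (0.32 ± 0.06, adjusted p = 0.091), and Cry2, a partner of PER (0.19 ± 0.04, adjusted p = 0.11), did not pass. Nfil3, which represses at the D-box, had a slope of -0.16 ± 0.04 (adjusted p = 0.25). Between genotypes 0 of the 39 probe sets of these genes were called. An unadjusted p under 0.05 was found in 3 (16.9% over all named and 38.9% over varying probe sets). All 3 were of Csnk1d, a kinase that marks PER for breakdown, and 2 of them were flat rows. The third differed by -0.19 ± 0.06 (adjusted p = 0.21), while another varying Csnk1d probe set, 1437690_x_at, differed by 0.13 ± 0.07 (adjusted p = 0.45 by limma). After those 3, the smallest p belonged to flat rows of Btrc (adjusted p = 0.30) and Rora (adjusted p = 0.34).

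Among 14 genes known as rhythmic in several tissues, 13 were measured with 18 varying probe sets. Of these 18 slopes on Dbp 10 had an unadjusted p under 0.05 by limma, beside 14.1% over all varying probe sets. Tspan4, a tetraspanin gene, rose with Dbp (0.31 ± 0.03, adjusted p = 0.010 among varying probe sets by limma). Between genotypes 0 of 23 were called. An unadjusted p under 0.05 was found in 3 (16.9% over all named and 38.9% over varying probe sets). Of these, 2 were of Coq10b, a gene of coenzyme Q function, with 0.41 ± 0.13 (adjusted p = 0.19) and 0.37 ± 0.13 (adjusted p = 0.24). The third was a flat probe set of Elovl3, which differed by 0.00023. Wee1, a cell cycle kinase under clock control, read 8.11, 7.63, 8.31 and 7.67 in LPA4-KO and 7.84, 6.34, 6.62 and 7.46 in WT mice. The groups overlapped, and the difference was 0.86 ± 0.37 (adjusted p = 0.31).

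Genes that respond to cues able to shift the clock in fat were read beside it. Of 17 varying probe sets of glucocorticoid targets 1 had a slope with an unadjusted p under 0.05 by limma, that of Mt1 at 1422557_s_at. Of 10 of temperature responders and 9 of handling and serum response 0 did. The share over all varying probe sets was 14.1% (943 of 6680), and each list is too small to tell its count from that share. Between genotypes, the unadjusted p was under 0.05 in 2 of all 21 probe sets of glucocorticoid targets. It was under 0.05 in 8 of 12 of temperature responders, 1 of them a flat row of Hsp90aa1, and in 4 of 10 of handling and serum response. The shares to set beside these are the same 16.9% of all named and 38.9% of varying probe sets. Most probe sets of these lists varied, so the second is the closer match. Mt1, a metallothionein that also responds to metals, rose at 1451612_at (1.202 ± 0.15, adjusted p = 0.034 by limma), while its other varying probe set, 1422557_s_at, had -0.37 ± 0.22 (adjusted p = 0.45). Sgk1, a kinase induced by glucocorticoids, differed by 0.18 ± 0.06 (adjusted p = 0.22) and Tsc22d3, which encodes the glucocorticoid-induced leucine zipper, by 0.56 ± 0.24 (adjusted p = 0.31), neither called. The glucocorticoid targets did not share a sign: of their 17 varying probe sets 7 had a positive and 10 a negative difference. Their median was -0.05 log2, as over all varying probe sets (-0.05). The heat shock gene Hsph1 differed by 0.95 ± 0.15 (adjusted p = 0.053) and 0.89 ± 0.16 (adjusted p = 0.066), its relatives Hspa1a and Hspa1b by 0.30 ± 0.08 (adjusted p = 0.13) and 0.42 ± 0.12 (adjusted p = 0.17), and Cirbp, the cold-inducible RNA-binding protein, by -0.46 ± 0.14 (adjusted p = 0.18), none of them called. The immediate early gene Ier3 differed by -0.42 ± 0.15 (adjusted p = 0.23), Junb by -0.72 ± 0.27 (adjusted p = 0.26) and Jun by 0.25 ± 0.08 (adjusted p = 0.19).

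Over all varying probe sets outside these lists, the genes most like Dbp in r over 8 arrays were Nptn (0.98), Rere (0.97), Gmfb (0.96), Arhgap24 (0.96) and Fabp5 (0.96). Those most opposed were Pde4d (-0.98), Chst11 (-0.97), Cyp2b10 (-0.97), C730049O14Rik (-0.97) and Pmvk (-0.96). For these 10 the r after removal of group means was between 0.96 and 0.99 in size. Tef had rank 5 of 6682 from the top (0.97) and Nr1d2 rank 6 (0.97), Npas2 rank 12 from the bottom (-0.93) and Arntl rank 13 (-0.92), and Nr1d1 was in the middle (-0.05). These r are across 8 arrays, were chosen as extremes of 6682 and carry no test.

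The label of the knockout was checked at Lpar4 itself. At 1452424_at all 4 LPA4-KO arrays, from 5.74 to 5.86, were below the WT arrays, from 6.48 to 6.54 (-0.71 ± 0.03, adjusted p = 0.0033 by limma). The other 2 Lpar4 probe sets were not lower in LPA4-KO mice (0.68 ± 0.24, adjusted p = 0.23, and 0.48 ± 0.25, adjusted p = 0.39). The array medians lay between 6.501 and 6.511. With 4 arrays a group, precision is limited by their number.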

How the data were processed

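The deposited table holds 1 value per probe set and array, used as log2 values. The base was inferred from the values, and the sources used here do not name the authors' background correction, normalization or summarisation. R 2.14.0 is named in the submitters' processing notes. Arrays were grouped by the titles in the labels, which call them biological replicates. Of 45101 probe sets, 34945 had 1 gene symbol in the platform annotation of GEO, and 932 had several and were left out. All named probe sets were fitted with limma 3.58.1 in R 4.3.3 (lmFit, eBayes with a trend, 4 against 4 arrays, no block) and p adjusted over all (Benjamini-Hochberg, threshold 0.05). Adjusted p-values of genes come from this fit or, where said, from the varying probe sets alone. Permutation tests were enumerated in full. The limma fits were tested on simulated data with independent noise in each probe set, so noise shared between genes was not part of that test. Members and lists were chosen with earlier results of these data known. All members are given in the text. For each list, called genes and the 3 of smallest p are named, and the 5 genes most like and most opposed to Dbp outside the lists. Hlf, Bhlhe40, Cry2, Nfil3, Tspan4, Cirbp and the second Hsph1 and Coq10b probe sets were added after their values were seen. The alternatives and their effect are in the closing section. The Dbp slope, the Dbp covariate and the joint removal of LPA4-KO replicate 4 and WT replicate 2 were added after seeing the data.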

Additional observations from a re-analysis of the deposited data

Results flagged for a closer look

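LPA4-KO replicate 4 stood apart from its group in Dbp at both probe sets. At 1438211_s_at it read 8.29 against 10.01 to 10.28 in the other LPA4-KO arrays, and the gap to the nearest took 0.865 of the range of the group. At 1418174_at it read 7.05 against 8.66 to 8.91, and the gap took 0.866 of the range. These were 2 of 40 groups of 4 arrays examined, and chance gives about 1 in 20. Both flags concern the same gene and array.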

How the results depend on the processing

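The count of 0 member probe sets called (1 with an unadjusted p under 0.05 by limma) became 5 after quantile normalization (Nr1d1 and 4 flat probe sets), 1 in the varying probe sets alone (Nr1d1) and 1 with Dbp as covariate (Per2), the latter added after seeing the data. It stayed 0 under all other alternatives run. For the other clock genes the count of 0 became 15 of 39 after quantile normalization. For the output genes it became 6 of 23 after that step and 1 among varying probe sets. Beside these stand 19712 of 34945 named probe sets after quantile normalization and 1259 of 6682 among varying ones. Of the genes called after that normalization, Arntl2, Btrc, Fbxl21, Rorb, Timeless, Leo1 and Elovl3 had only flat rows. The 326 calls over all named probe sets became 19712 after quantile normalization, 595 above the median level, 1259 among varying probe sets, 535 with array weights, 144 with a plain equal-variance test and 1126 at an adjusted p under 0.1, ran from 10 to 125 with 1 array left out, and were 7 without LPA4-KO replicate 4 and WT replicate 2.

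With the replicate number as a block 3 were called, all lower, and 0 members. Same-numbered arrays correlated in their deviations by 0.09, 0.08, 0.27 and -0.20. The WT array of the same number was the most alike for LPA4-KO replicates 2 and 3, but not for replicates 1 and 4. With 4 arrays a group, these values cannot tell whether the numbers paired the mice. Member slopes on Dbp called over all named probe sets went from 0 to 2 after quantile normalization, and among varying ones from 9 to between 0 and 9 with 1 array left out. Of 425 single member values under alternatives, 414 kept their direction. With the mean of all probe sets of a gene, Per3 reversed to -0.052 (given at 1421087_at and 1460662_at) and Tef to 0.029 (1438033_at). With 1 array left out, Dbp ran from -0.25 to 0.80 (1438211_s_at) and from -0.076 to 0.85 (1418174_at), Tef from -0.41 to 0.063 (1438033_at), and Per3 from -0.13 to 0.54 (1421087_at), -0.34 to 0.049 (1441445_at), -0.39 to 0.042 (1458176_at) and -0.041 to 0.18 (1460662_at). Dbp and the first and last of these Per3 values turned negative without WT replicate 2, Tef positive without WT replicate 1, and the middle pair of Per3 values positive without LPA4-KO replicate 4 or WT replicate 4. The cause of these changes was not tested. The 3 correlations of Arntl stayed under p = 0.05 (exact permutation) in every alternative planned, other than Per2 without the 2 arrays farthest from the median.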

Other observations

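Cyp2b10, a cytochrome P450 of drug and steroid metabolism, fell with Dbp at all 3 of its called probe sets. At the one with the steepest slope it read 6.02, 6.99, 6.37 and 8.56 in LPA4-KO replicates 1 to 4 and 7.22, 9.03, 7.11 and 6.34 in WT replicates 1 to 4, with a slope of -0.99 ± 0.12 (adjusted p = 0.014 among varying probe sets by limma). Its highest arrays were WT replicate 2 and LPA4-KO replicate 4, the 2 with the least Dbp. It was among 21 genes in none of the lists whose slopes were called, in 23 probe sets.

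Fkbp5, a classical target of the glucocorticoid receptor, read 10.61 at 1416125_at in LPA4-KO replicate 4, the highest of the 8 arrays, and 9.54 in WT replicate 2, the lowest. Neither stood apart, since WT replicate 1 read 10.60 and WT replicate 3 read 9.59. At 1448231_at WT replicate 1 was highest (8.10), above LPA4-KO replicate 4 (8.03), and WT replicate 2 was lowest (7.09). Cdkn1a, a cell cycle inhibitor in the output list, was highest in LPA4-KO replicate 4 and WT replicate 2, with 8.98 and 8.81 at 1424638_at against 7.75 to 8.39 in the other 6. These genes were singled out after their values were seen, and the differences between single arrays were not tested.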
